A study of Mus musculus with 27 samples.

Results

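The retinal progenitor transcription factors examined were Rax, Pax6, Lhx2, Six3, Six6, Sox2, Meis1 and Meis2. These 8 genes were taken by symbol from a table of 38168 annotated features, in which each has 1 entry. Whole retinas of wild type C57BL/6J mice, with no mutant allele and no agent given, were profiled by RNA-seq of total RNA at 7 ages. The ages were embryonic day 14 (E14, n = 3), E17 (n = 3), postnatal day 1 (P1, n = 4), P6 (n = 3), P15 (n = 4), P28 (n = 4) and P60 (n = 6). The study's methods describe pools of retinas from several animals, with some single mice at P60 that the labels do not mark, so that p-values measure only the spread between these libraries. Embryonic and P1 tissue came from both sexes and later tissue from males, and an effect of sex cannot be told apart from one of age across that boundary.

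All 8 genes are transcription factors that set up the eye field and the pool of dividing retinal progenitors. Rax, Pax6, Lhx2, Six3, Six6 and the Meis genes carry a homeodomain, a DNA-binding fold, whereas Sox2 binds DNA through an HMG box. Their expression is known to persist in some cells after the progenitors exit the cell cycle: Pax6 and Meis2 in amacrine cells, Sox2 in Müller glia and some amacrine cells, Lhx2 and Rax in Müller glia, and Six3 and Six6 in inner retinal neurons.

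Levels are in CPM (the reads of a feature scaled to a fixed library total). The read totals behind the CPM, recovered from the CPM steps, were 7077781 to 11332323 per library. These are fewer than the reads that the study's methods give as collected. The scarcest value of any of the 8 genes, for Lhx2, rested on 77 reads. The tissue label was checked with marker lists. Over all features tested, limma called 35.0% higher and 40.4% lower in mature than in embryonic retina. All 9 rod markers were higher in mature than in embryonic retina. All 10 progenitor markers and all 12 proliferation markers were lower in mature than in embryonic retina. Of 10 Müller glia markers 7 were higher and 3 lower, and of 10 amacrine markers 8 were higher and 1 lower, with Th also higher by edgeR (adjusted p = 0.0363). With limma, 2 of 9 ganglion cell markers were higher and 6 lower, and 2 of 5 horizontal cell markers were higher and 2 lower. Of 8 bipolar cell markers 7 were higher and 1 lower. The part of these cell types in the levels of the 8 genes was not tested. Over all libraries the summed levels stayed between 7.70 and 43.9 CPM for 8 markers of retinal pigment epithelium, between 4.89 and 10.6 CPM for the 7 lens markers listed, and between 10.7 and 50.3 CPM for 5 blood markers. In whole tissue, fewer cells that express a gene and less RNA per cell cannot be told apart.

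The first comparison asked how far each gene had moved between embryonic retina (E14 and E17, 6 libraries) and mature retina (P15, P28 and P60, 14 libraries). All 8 genes passed the limma test at an adjusted p under 0.05, as did 75.4% of the 31760 features tested. Of the 8 genes, 7 were lower in mature retina, and the same 7 were lower by at least 1 on the log2(CPM + 1) scale. Over all features 40.4% were lower, and 16.1% were lower by that margin. Meis2 was the 1 gene of the 8 that was higher, in a comparison where 35.0% of all features were higher. The median log2 change was -1.74 for the 8 genes and -0.06 for all features. For the 7 lower genes the mature libraries did not overlap the embryonic ones, which held for 23.0% of all features in that direction.

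**Figure D1:**
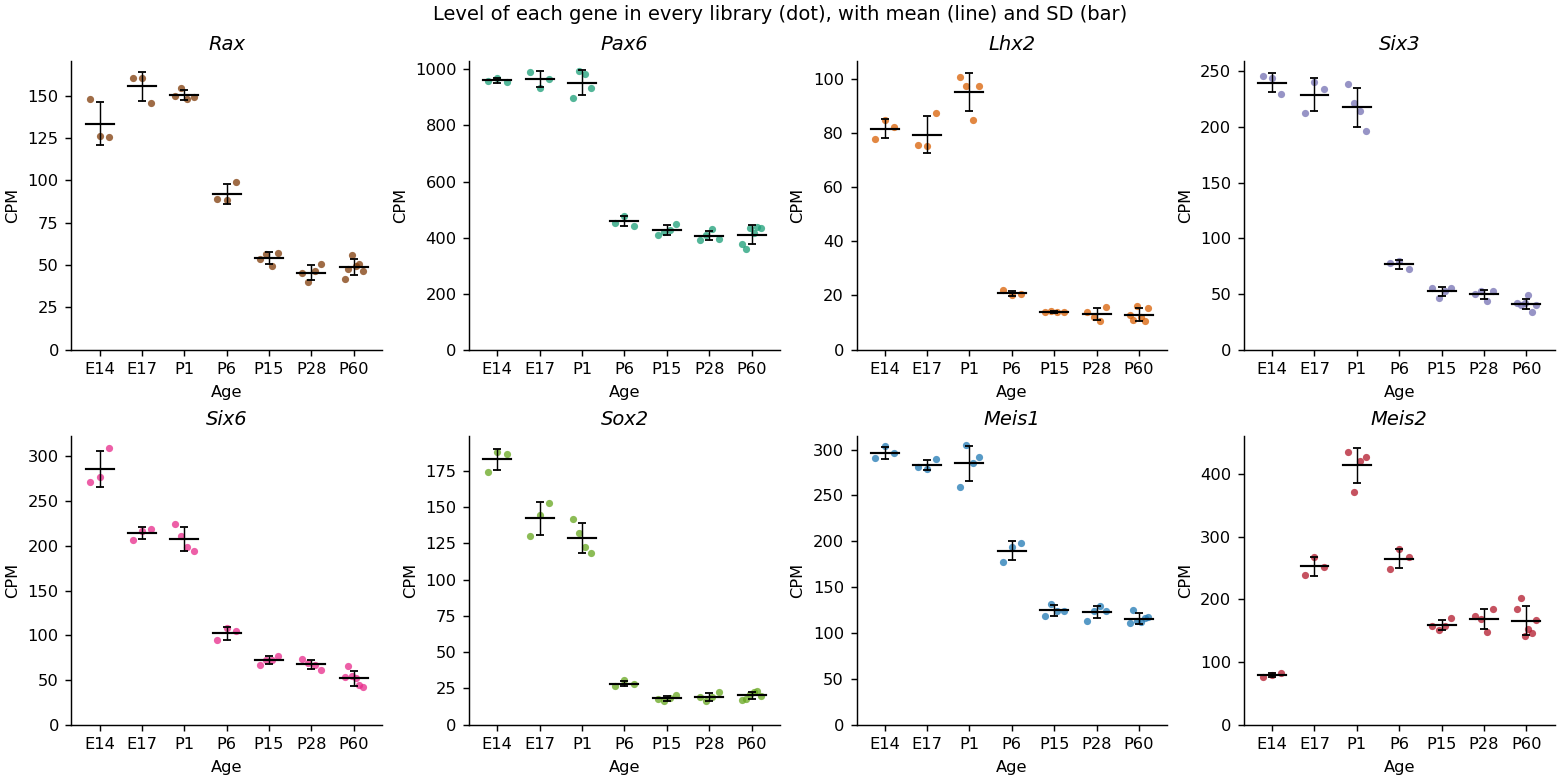
Level in CPM (vertical axis, linear, from 0) of each of the 8 genes at the 7 ages (horizontal axis). Each dot is a library, the line is the mean and the bar the SD. In all 8 panels the P6 libraries lie below every P1 library and the later ages lie lower still or level. Meis2 first climbs from a mean of 79.2 CPM at E14 to 414 CPM at P1 before it falls.

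Rax (Gene ID 19434, chr18:65928277-65939787, minus strand, GRCm38) is the homeobox gene needed for the optic vesicle to form. Its levels were 148, 126 and 126 CPM at E14, 161, 161 and 146 CPM at E17, and 150.1, 154, 148 and 149 CPM at P1. They were 89.0, 88.6 and 99.0 CPM at P6, then 53.5, 56.5, 49.4 and 56.9 CPM at P15. At P28 they were 45.4, 40.02, 46.4 and 50.4 CPM, and at P60 the lowest was 41.8, the median 48.6 and the highest 55.8 CPM. The 3 early ages overlapped, P6 formed a separate lower band, and P15, P28 and P60 lay below it and overlapped. The change from embryonic to mature retina was -1.53 ± 0.06 (SE) on the log2(CPM + 1) scale, with a limma adjusted p of 3.46e-21.

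Pax6 (Gene ID 18508, chr2:105668900-105697364, plus strand) encodes a paired-box and homeodomain factor required for the eye as a whole. Its levels were 958, 969 and 954 CPM at E14, 992, 934 and 967 CPM at E17, and 899, 995, 984 and 935 CPM at P1. The 3 early ages could not be separated, and the means of 961, 964 and 953 CPM lay closer together than the SD of 44.6 CPM among the P1 libraries. Levels then stood at 453, 478 and 443 CPM at P6, at 407, 419.9, 428 and 449.6 CPM at P15, and at 392, 408, 429.6 and 396 CPM at P28. At P60 the lowest library was at 360.4, the median at 425 and the highest at 439 CPM. From P6 on each neighbouring age overlapped the next, with no separate band after the step to P6. The embryonic to mature change was -1.22 ± 0.04 (limma adjusted p = 1.33e-22).

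Lhx2 (Gene ID 16870, chr2:38339281-38369733, plus strand) is a LIM homeobox gene that links optic vesicle patterning to progenitor maintenance and later to Müller glia. Its levels were 77.8, 84.8 and 82.1 CPM at E14, 75.6, 75.4 and 87.4 CPM at E17, and 101, 97.4, 84.9 and 97.4 CPM at P1. Its highest mean, 95.1 ± 6.93 CPM (SD, n = 4), was thus at P1, where every library was above every E14 library, although the E17 libraries overlapped both. Levels fell to 21.9, 20.01 and 20.7 CPM at P6 and to 13.8, 14.2, 13.8 and 13.7 CPM at P15. They were 14.0, 11.9, 10.6 and 15.6 CPM at P28 and ran from 10.7 through a median of 12.4 to 16.1 CPM at P60. The last 3 ages overlapped. The embryonic to mature change was -2.52 ± 0.08 (limma adjusted p = 3.41e-23).

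Six3 (Gene ID 20473, chr17:85613608-85629302, plus strand) and Six6 (Gene ID 20476, chr12:72939892-72944899, plus strand) are paralogs of the sine oculis homeobox family that support growth of the eye field and act largely as repressors. The homeobox of each is shown because the reads had to tell the genes apart. That of Six3 lies at chr17:85621858-85622037, in exon 2 of 3 of the transcript read, and that of Six6 at chr12:72940437-72940616, in exon 1 of 2. Both are coding sequence on the plus strand of GRCm38, and capitals mark the bases that differ.
Six3 homeobox: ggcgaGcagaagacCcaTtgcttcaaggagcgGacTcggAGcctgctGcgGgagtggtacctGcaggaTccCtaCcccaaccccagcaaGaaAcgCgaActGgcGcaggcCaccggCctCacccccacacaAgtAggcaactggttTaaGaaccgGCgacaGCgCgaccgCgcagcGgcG
Six6 homeobox: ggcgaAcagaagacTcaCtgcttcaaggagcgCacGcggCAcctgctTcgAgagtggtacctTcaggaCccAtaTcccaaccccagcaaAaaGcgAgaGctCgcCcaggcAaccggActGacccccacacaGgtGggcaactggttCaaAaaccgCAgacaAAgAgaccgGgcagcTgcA
Of the 180 bases 34 differ, an identity of 81.1%, and only 1 of the 60 codons changes the amino acid. The longest identical stretch was 14 bases, and over the annotated transcripts of both genes 0 stretches of 50 bases, the read length, were shared. A read that matches in full therefore could come from only one of the pair.

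Six3 measured 246, 243 and 229.7 CPM at E14, 212, 241 and 234 CPM at E17, and 239, 221, 214 and 196 CPM at P1. It then measured 77.7, 79.8 and 72.0 CPM at P6, 55.0, 46.7, 52.2 and 55.7 CPM at P15, and 49.7, 52.5, 43.7 and 52.9 CPM at P28. The P60 libraries ran from 33.5 through a median of 41.0 to 48.8 CPM. The 3 early ages overlapped, and P6 stood between them and the later ages without touching either. Its embryonic to mature change was -2.28 ± 0.06 (limma adjusted p = 3.66e-25).

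Six6 measured 272, 277 and 309 CPM at E14 but 207, 217 and 219 CPM at E17, with no overlap. P1 held 224, 211, 198 and 195 CPM, within reach of E17. Levels were 94.4, 108 and 105 CPM at P6, 66.8, 72.0, 72.0 and 77.2 CPM at P15, and 73.4, 68.8, 67.1 and 60.97 CPM at P28. At P60 the range was 42.3 to 65.9 CPM with a median of 52.6 CPM. P60 overlapped P28 but lay below every P15 library. Its embryonic to mature change was -1.96 ± 0.07 (limma adjusted p = 1.02e-22).

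Sox2 (Gene ID 20674, chr3:34650405-34652461, plus strand, a single exon) is the SoxB1 factor that keeps neural progenitors undifferentiated. It measured 174, 188 and 187 CPM at E14, 130.1, 145 and 153 CPM at E17, and 142, 132, 122 and 119 CPM at P1. P6 held 26.7, 30.6 and 27.9 CPM, a level below every earlier library and above every later one. Levels were 18.1, 16.2, 18.4 and 20.2 CPM at P15, 18.8, 16.6, 18.9 and 22.8 CPM at P28, and between 17.3 and 22.9 CPM at P60 with a median of 20.7 CPM. These mature ages overlapped throughout. The change from embryonic to mature retina, -3.01 ± 0.07 (limma adjusted p = 5.36e-27), was the largest fall among the 8 genes.

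Meis1 (Gene ID 17268, chr11:18879817-19018985, minus strand) and Meis2 (Gene ID 17536, chr2:115863064-116065839, minus strand) encode TALE homeodomain proteins, which bind DNA together with PBX partners and act as cofactors of other homeodomain proteins. Their homeoboxes each span exons 8 to 10 of 12, at chr11:18885615-18941733 for Meis1 and chr2:115868767-116000205 for Meis2, and are shown as coding sequence in the sense of the gene, joined over the exons. Capitals again mark the bases that differ between the pair.
Meis1 homeobox: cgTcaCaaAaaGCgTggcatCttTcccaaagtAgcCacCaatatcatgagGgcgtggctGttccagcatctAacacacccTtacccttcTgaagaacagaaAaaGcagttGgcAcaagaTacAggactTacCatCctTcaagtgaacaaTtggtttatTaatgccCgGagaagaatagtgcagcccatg
Meis2 homeobox: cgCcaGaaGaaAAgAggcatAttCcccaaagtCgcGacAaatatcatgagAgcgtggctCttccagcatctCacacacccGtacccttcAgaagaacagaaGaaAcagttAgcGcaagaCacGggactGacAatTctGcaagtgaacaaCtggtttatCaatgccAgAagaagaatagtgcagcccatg
Of these 189 bases 30 differ, an identity of 84.1%, with 1 of the 63 codons changing the amino acid. The longest identical stretch was 21 bases, and again 0 stretches of 50 bases were common to transcripts of both genes. A read that matches in full could thus come from only one of the pair.

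Meis1 measured 291, 304 and 296 CPM at E14, 281, 279 and 289 CPM at E17, and 259.5, 305, 285 and 292 CPM at P1. Levels were 178, 194 and 198 CPM at P6, 118, 132, 124 and 124 CPM at P15, and 113, 124, 129 and 124 CPM at P28. The P60 libraries lay between 111 and 126 CPM with a median of 115 CPM. The E14 libraries were above those of E17 without overlap, both overlapped P1, P6 stood apart, and P15, P28 and P60 overlapped. Its embryonic to mature change was -1.25 ± 0.04 (limma adjusted p = 2.58e-22).

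Meis2 measured 75.7, 80.0 and 82.0 CPM at E14, 238, 268 and 252 CPM at E17, and 435, 372, 421 and 427 CPM at P1. P6 held 248.5, 279.8 and 267 CPM and overlapped E17. Levels were then 158, 151, 157 and 171 CPM at P15, 174, 168, 147 and 184 CPM at P28, and 142 to 202 CPM at P60 with a median of 161 CPM. Mature libraries were thus all above E14 and all below E17. The mean over both embryonic ages gave a mature change of 0.21 ± 0.06 (limma adjusted p = 0.00263), or 0.32 with edgeR on the recovered reads, a value that averages over embryonic ages on either side of the mature ones.

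The step comparisons asked when each change took place. Between E14 and E17, 3 of the 8 genes passed the test, where 10.6% of all features did. Meis2 rose by 1.66 ± 0.10, Six6 fell by 0.42 ± 0.11 (limma adjusted p = 0.00903) and Sox2 fell by 0.36 ± 0.12 (limma adjusted p = 0.0410). The adjusted p of Sox2 was 0.0639, 0.141 and 0.126 without E14 replicate 1, 2 and 3, and 0.207 and 0.0908 without E17 replicate 1 and 2, while that of Six6 was 0.0703 without E14 replicate 3. Rax was higher in mean at E17, with a change of 0.22 ± 0.10 that did not pass (limma adjusted p = 0.168). Pax6, Lhx2, Six3 and Meis1 lay between -0.07 and 0.01 and did not pass. Between E17 and P1, Meis2 was the single gene of the 8 called, with a rise of 0.71 ± 0.09 (limma adjusted p = 2.39e-06), against 9.21% of all features.

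Between P1 and P6 all 8 genes were lower, and the libraries of P1 and P6 did not overlap for any of them. Over all features 38.3% passed in either direction, 20.4% were lower and 25.4% were lower without overlap. Sox2 and Lhx2 fell furthest, by 2.14 ± 0.11 and 2.13 ± 0.13, and their means at P6 were 22.03% and 21.9% of those at P1. Six3 fell by 1.49 ± 0.10, Pax6 by 1.06 ± 0.06 and Six6 by 1.01 ± 0.10. Rax, Meis2 and Meis1 fell least, by 0.70 ± 0.09, 0.64 ± 0.09 and 0.58 ± 0.07, and kept 61.3%, 64.1% and 66.5% of their P1 means. The 8 limma adjusted p-values ran from 8.57e-17 for Sox2 to 1.58e-06 for Meis2. Over the same interval the summed level of the 12 proliferation markers went from 3687 to 175 CPM in mean, and the part of this shift in the values of the 8 genes was not tested.

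**Figure D2:**
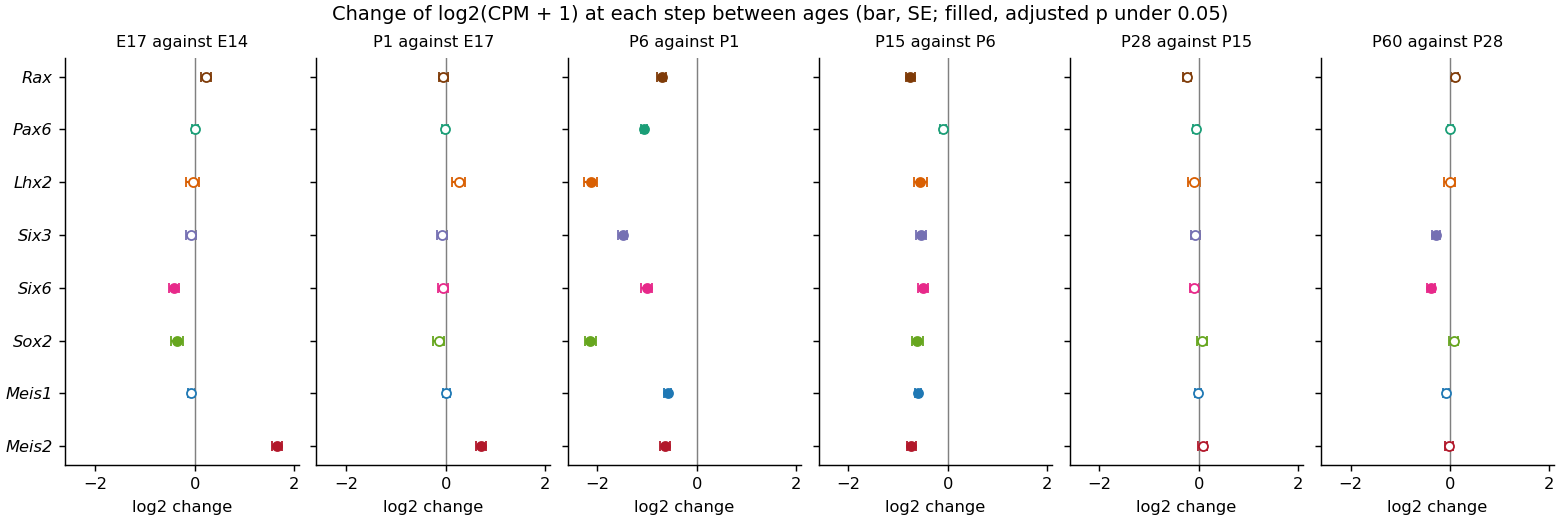
Change of log2(CPM + 1) (horizontal axis) of each gene at the 6 steps between neighbouring ages, 1 panel per step. Dots are limma estimates, bars the SE, and filled dots passed an adjusted p of 0.05. All 8 dots are filled and left of 0 at the step from P1 to P6, and 0 of 8 are filled at the step from P15 to P28.

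Between P6 and P15, 7 of the 8 genes were lower again, where 19.0% of all features were. Rax fell by 0.76 ± 0.09, Meis2 by 0.73 ± 0.09, Sox2 by 0.61 ± 0.11 and Meis1 by 0.60 ± 0.07. Lhx2, Six3 and Six6 fell by 0.55 ± 0.13, 0.54 ± 0.10 and 0.50 ± 0.10. For Rax and the Meis genes this step and the one before it were of similar size. For Sox2, Lhx2, Six3, Six6 and Pax6 the earlier step was larger, although the difference between steps was not tested. Pax6 was the exception between P6 and P15, with a change of -0.10 ± 0.06 that did not pass (limma adjusted p = 0.226).

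Between P15 and P28, limma called 0 of the 8 genes, as did edgeR, with 2.72% of all features called by limma. At an unadjusted p under 0.05 the count was 1, Rax, whose change was -0.24 ± 0.08 (limma adjusted p = 0.131). Between P28 and P60, Six6 fell by 0.38 ± 0.09 (limma adjusted p = 0.00781) and Six3 by 0.28 ± 0.08 (limma adjusted p = 0.0272), 2 of the 8 genes, where 12.9% of all features passed and 8.11% were lower. That share rests on 4100 calls, which became 1513 to 7517 with a library left out and 23 when P28 and P60 alone were fitted. The libraries of both ages overlapped for each gene. Six3 no longer passed with edgeR on the recovered reads (adjusted p = 0.110) or with median-of-ratios scaling (limma adjusted p = 0.111), nor without P28 replicate 1 (0.0687), replicate 2 (0.0883) or replicate 4 (0.0768) or without P60 replicate 5 (0.0725). When P28 and P60 alone were fitted, neither gene passed, with limma adjusted p-values of 0.205 for Six3 and 0.161 for Six6. At this step the calls over all features split into 1524 higher and 2576 lower with CPM, but into 2100 and 1966 with median-of-ratios scaling and 2118 and 1363 with edgeR.

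An F test for any difference between the 7 ages passed for 8 of the 8 genes, against 83.0% of all features, with limma adjusted p-values from 7.79e-26 to 6.84e-19. At P60 the mean was 42.5% of the highest mean of any age for Pax6, 40.2% for Meis2, 39.0% for Meis1 and 31.3% for Rax. It was 18.2% for Six6, 17.1% for Six3, 13.6% for Lhx2 and 11.1% for Sox2. The summed level of the 8 genes was 2260 ± 16.1 CPM at E14, 2452 ± 32.4 CPM at P1, 1233 ± 44.9 CPM at P6 and 867 ± 15.1 CPM at P60 (SD, n = 3, 4, 3 and 6). As a share of these summed reads, which longer genes weigh on more, Sox2 went from 8.09% to 2.35% and Meis2 from 3.50% to 19.2% between E14 and P60, whereas Pax6 held 42.5% and 47.3%.

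**Figure D3:**
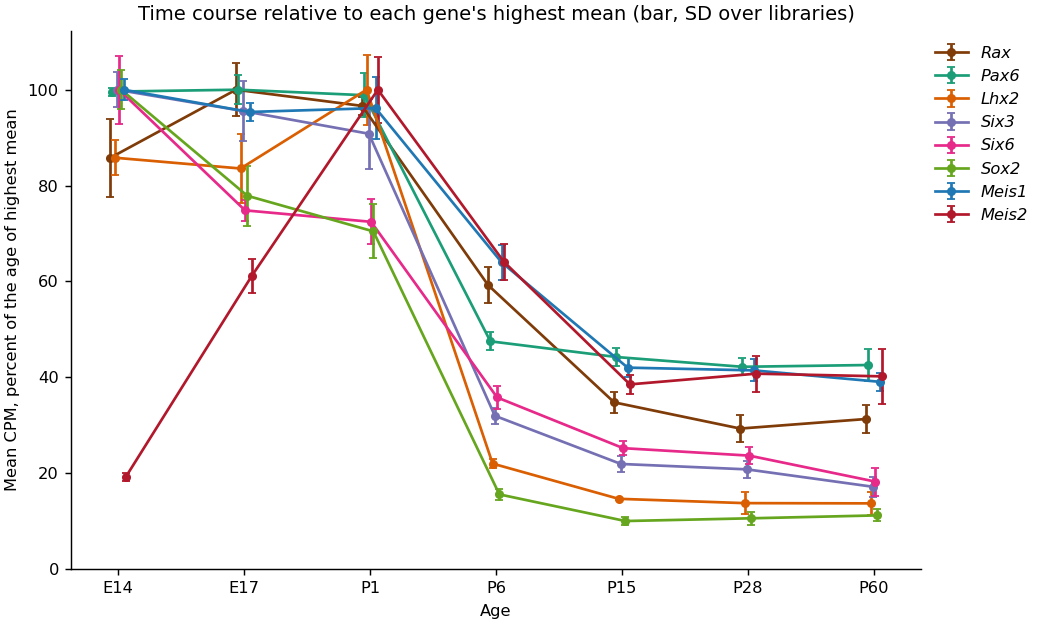
Mean CPM of each gene as a percent of its highest mean (vertical axis) at the 7 ages (horizontal axis); bars are the SD over libraries on the same scale. At P60 Pax6, Meis2, Meis1 and Rax lie between 31.3% and 42.5%, and Six6, Six3, Lhx2 and Sox2 between 11.1% and 18.2%.

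Because a ratio of 2 genes within a library depends little on how the library was scaled, all 28 pairs of the 8 genes were compared between the 6 embryonic and the 14 mature libraries by a two-sided exact permutation test of the log2 ratio, with a pseudocount of 0.1. After Benjamini-Hochberg adjustment over the 28 pairs, 27 passed, 19 of them at a p of 2.58e-05, the smallest the test can give. No share over pairs of other genes was computed, and 75.4% of all features passed the limma test between embryonic and mature retina. The count of pairs is therefore not read as particular to these genes. The exception was Pax6 over Meis1, whose mean log2 ratio was 1.73 ± 0.05 (SD, n = 6) in embryonic and 1.78 ± 0.12 (SD, n = 14) in mature retina, a difference of 0.05 (exact permutation p = 0.340, adjusted p = 0.340). Sox2 fell against every other gene of the set, by 0.45 against Lhx2 (exact permutation p = 0.00103, adjusted p = 0.00131) and by 1.83 against Pax6. Without E14 the difference of Sox2 from Lhx2 was -0.29 and did not pass (adjusted p = 0.0760 by the exact permutation test).

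The ratio of CPM within a library depends on the lengths of both genes, so that its change and not its size is compared. Meis2 over Meis1 was 0.267 ± 0.009 (SD, n = 3) at E14 and 0.894 ± 0.059 (n = 3) at E17. It reached 1.46 ± 0.19 (n = 4) at P1 and stayed at 1.40 ± 0.05 at P6, 1.28 ± 0.10 at P15, 1.38 ± 0.18 at P28 and 1.43 ± 0.17 at P60. All embryonic libraries were below all later ones, which ran from 1.14 up. The log2 ratio differed by 1.48 between mature and embryonic retina (exact permutation p = 2.58e-05, adjusted p = 3.80e-05), by 2.35 when E17 was left out and by 0.61 when E14 was.

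Six3 over Six6 was 0.841 ± 0.087 at E14, 1.07 ± 0.04 at E17 and 1.05 ± 0.03 at P1. It was 0.750 ± 0.069 at P6, 0.729 ± 0.072 at P15, 0.740 ± 0.098 at P28 and 0.800 ± 0.132 at P60. The E17 and P1 libraries, from 1.01 to 1.11, were above all libraries of the other ages. The mature log2 ratio was lower than the embryonic one by 0.32 (exact permutation p = 0.00493, adjusted p = 0.00552). Without E17 that difference shrank to -0.15 and did not pass (adjusted p = 0.250 by the exact permutation test).

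**Figure D4:**
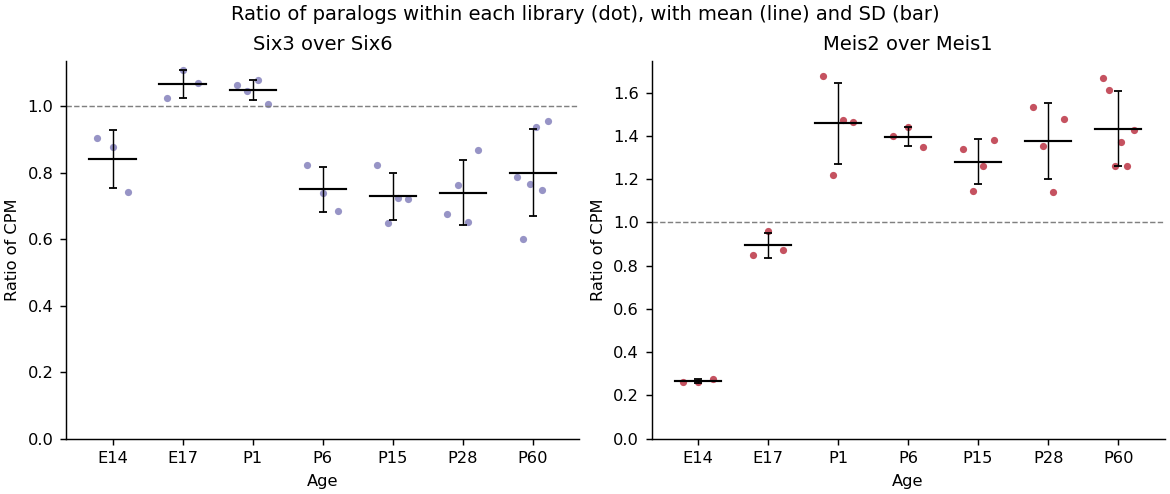
Ratio of CPM within each library (vertical axis, from 0) of Six3 over Six6 and of Meis2 over Meis1 at the 7 ages (horizontal axis). Dots are libraries, lines means, bars the SD, and the dashed line marks equal CPM. Equal CPM is not an equal level, because the ratio depends on the lengths of both genes. Meis2 over Meis1 crosses 1 between E17 and P1, and Six3 over Six6 is above 1 at E17 and P1 and below it at the other ages.

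To set the genes against each other, CPM was divided by the length of the merged annotated exons, which counts all annotated isoforms as expressed. At E14 Sox2 led with 88.9 ± 3.59 CPM per kb, followed by Pax6 with 82.1 ± 0.677, Six6 with 71.4 ± 5.05, Six3 with 44.0 ± 1.60, Meis1 with 28.2 ± 0.625, Rax with 22.8 ± 2.19, Lhx2 with 18.6 ± 0.802 and Meis2 with 6.58 ± 0.266 CPM per kb (SD, n = 3). No neighbours in this order overlapped between libraries. At P60 the order was Pax6 with 35.1 ± 2.84, Meis2 with 13.8 ± 1.95, Six6 with 13.0 ± 2.08, Meis1 with 10.996 ± 0.521, Sox2 with 9.90 ± 1.13, Rax with 8.33 ± 0.794, Six3 with 7.53 ± 0.901 and Lhx2 with 2.95 ± 0.514 CPM per kb (SD, n = 6). Pax6 at the top and Lhx2 at the bottom were set apart from the rest, and each of the other 6 overlapped its neighbour. With these lengths, Sox2 went from the highest to the fifth level and Meis2 from the lowest to the second. The ranks depend on the annotated lengths, 2057 bases for Sox2 and 11694 for Pax6. The RefSeq promoter window of Sox2 ends at chr3:34650044, upstream of the exon used here, which begins at 34650405. A longer Sox2 transcript would lower its value, so its first rank at E14 holds for this length only.

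**Figure D5:**
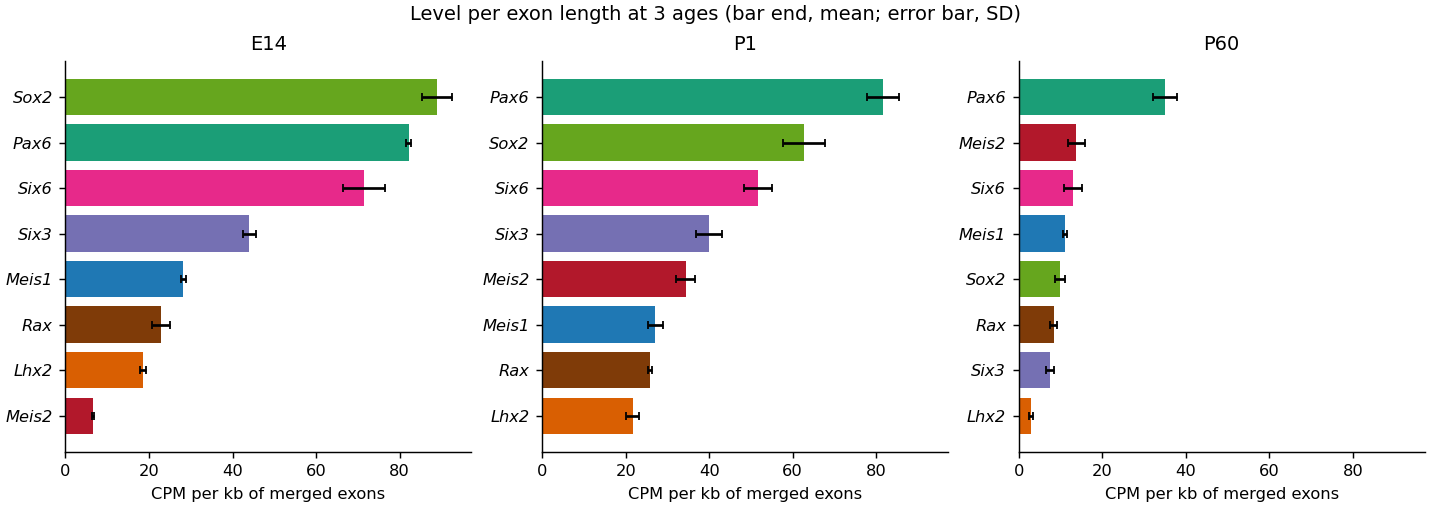
CPM per kb of merged exons (horizontal axis, from 0, the same in all panels) of the 8 genes at E14, P1 and P60, sorted within each age. Bar ends are means and error bars the SD. Sox2 leads at E14 with 88.9 and Pax6 at P60 with 35.1 CPM per kb, while Meis2 is last at E14 and second at P60.

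Several of the genes overlap another annotated gene, and whether the counting used strand is not given in the sources used here. Raxos1, antisense to Rax, measured 56.1 ± 5.16 CPM at E14 and 40.1 ± 6.61 CPM at P60, and 25.0% of the 50-base stretches of Rax transcripts were shared with another gene, 0.603% with genes elsewhere in the genome. Six3os1, antisense to Six3, went from 330 ± 21.6 to 58.8 ± 7.85 CPM. For Six3, 3.61% of the 50-base stretches were shared with another gene. The protein-coding gene 4930447C04Rik, opposite to the start of Six6, went the other way, from 78.3 ± 8.56 CPM at E14 to 140.0 ± 18.5 CPM at P60. Sox2 lies within Sox2ot, a long noncoding transcript of the same strand, which measured 39.1 ± 3.07 CPM at E14, 128 ± 7.31 CPM at P1 and 24.0 ± 3.92 CPM at P60 and was thus highest at P1 among these ages. Pax6os1, which overlaps Pax6 at its start, stayed at 4.50 ± 1.05 CPM or less in mean at E14, P1 and P60. Within Meis1, 2900018N21Rik and 2610001A08Rik measured 16.6 ± 0.561 and 17.8 ± 1.55 CPM at E14 and 4.201 ± 1.38 and 4.81 ± 1.83 CPM at P60. Of the 50-base stretches of Meis1, 17.1% were shared, and for Sox2 and Lhx2 the share was 0%.

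Partners and relatives of the 8 genes were described from lists chosen with earlier results of these data known. Among 11 partners of Six3 and Six6 (EYA phosphatases, DACH and Groucho corepressors), 2 were higher and 9 lower in mature than in embryonic retina, with a median of -1.54. The shares over all features were 35.0% and 40.4%. Eya2 fell by 2.99 ± 0.16, from 25.9 CPM at E14 to 5.28 CPM already at E17, and Eya4 fell by 2.72 ± 0.12. Tle2 rose by 2.52 ± 0.14, from 3.83 CPM at E14 to 31.5 CPM at P60. Among other genes of their family, Six5 fell by 2.40 ± 0.14 and Six4 by 0.70 ± 0.15, whereas Six2, at -0.35 ± 0.17, did not pass (limma adjusted p = 0.0695).

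All 9 other TALE homeobox genes were lower in mature retina with limma, where 40.4% of all features were, with a median of -1.12. Pknox2, the smallest of these changes at -0.25 (limma adjusted p = 0.0114), did not pass with edgeR (adjusted p = 0.112). Tgif1, a repressor, fell by 3.51 ± 0.16, Tgif2 by 1.41 ± 0.10 and Pbx4 by 1.33 ± 0.15. Of the 10 LIM cofactors, with which LHX proteins assemble, 1, Ssbp2, was higher by 0.45 ± 0.09 and 6 were lower with limma, against 35.0% and 40.4% of all features. With edgeR, Lmo4 was no longer among the lower genes (adjusted p = 0.0855) and Lmo1 was also higher (adjusted p = 0.0158). Ssbp3 fell by 1.78 ± 0.05, Lmo2 by 1.58 ± 0.15 and Ldb1, the adaptor that joins LIM homeodomain proteins, by 1.45 ± 0.08. Of the 4 other SoxB genes 2 were tested, and Sox3 and Sox1 fell by 2.68 ± 0.11 and 1.97 ± 0.12. Of the 8 other PAX genes 4 were tested, with Pax2 lower by 1.66 ± 0.14 and Pax8 higher by 0.69 ± 0.15. Among the partners and relatives named here with a change and its SE, all but Six2 had a limma adjusted p of 9.51e-05 or less. This bound does not cover Pknox2, or genes that were only counted, such as Lmo4 (limma adjusted p = 0.00663).

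The features closest to each gene in time course were found by Pearson's r of log2(CPM + 1) over the 27 libraries among 11000 features with a Gene ID and a mean of at least 10 CPM. The libraries are shared by both genes of a pair and fall into ages, so r is given as a description. For Pax6 they were Ttk (0.994), Bub1 (0.993) and Brip1 (0.992), of which Ttk and Bub1 are spindle checkpoint kinases. For Lhx2 they were the mitotic kinase gene Aurkb (0.993), D17H6S56E-5 (0.992) and Esco2 (0.992), a cohesin acetyltransferase. Sox2 was closest to Plagl1 (0.995), to Uhrf1 (0.994), which maintains DNA methylation through replication, and to Foxn4 (0.994), a progenitor factor for amacrine and horizontal cells. Rax was closest to Myb (0.988), Hes6 (0.987) and the long noncoding RNA Miat (0.985).

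Six3 was closest to Gm5577 (0.993), Zfp36l1 (0.993) and Trim59 (0.992), and Six6 to Pabpc1 (0.986) and Efna5 (0.984). Meis1 was closest to Rbbp8 (0.992), Tfdp2 (0.992) and the SoxC factor Sox11 (0.990). Meis2 stood apart, with Tfap2a (0.968), Lhx9 (0.957) and Trib2 (0.949). Tfap2a, an AP-2 factor of amacrine cells, went from 13.4 CPM at E14 through 89.9 CPM at E17 to 166 CPM at P1 and 37.2 CPM at P60. Over all 10 amacrine markers the summed level was 158 to 179 CPM at E14, 914 to 1032 CPM at P1 and 616 to 673 CPM at P60, and its part in the level of Meis2 was not tested.

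Promoter windows from RefSeq (GRCm38.p6, from 250 bases before to 50 bases after an annotated start) were read for 7 of the genes, 9 windows in all, and searched on both strands for short motifs. These were TAATTA for homeodomains, TGACAG for TALE proteins, ACAATG for SOX proteins, CCAAT for NF-Y, TATAAA for the TATA box and CACGTG for the E-box. CCAAT was present in 6 of the 9 windows, against 37.4% of 32851 promoters, and TGACAG in 4, against 19.2%. ACAATG was in 1 (Meis1; 12.6% of all promoters) and TATAAA in 1 (Meis2; 13.6%). TAATTA was in 0 of the 9 (5.29%), as was CACGTG (7.15%). The 3 windows that held both CCAAT and TGACAG, as did 7.30% of all promoters, belonged to Six3, Six6 and Sox2 and are shown for that reason, with the matches in capitals.
Six3 promoter, chr17:85620584-85620883, plus strand: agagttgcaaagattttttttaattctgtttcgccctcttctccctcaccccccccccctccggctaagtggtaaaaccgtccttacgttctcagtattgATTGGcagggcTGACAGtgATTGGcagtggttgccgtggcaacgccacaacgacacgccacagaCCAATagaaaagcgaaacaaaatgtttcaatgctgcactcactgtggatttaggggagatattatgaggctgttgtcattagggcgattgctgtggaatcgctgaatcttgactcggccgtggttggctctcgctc
Six6 promoter, chr12:72939632-72939931, plus strand: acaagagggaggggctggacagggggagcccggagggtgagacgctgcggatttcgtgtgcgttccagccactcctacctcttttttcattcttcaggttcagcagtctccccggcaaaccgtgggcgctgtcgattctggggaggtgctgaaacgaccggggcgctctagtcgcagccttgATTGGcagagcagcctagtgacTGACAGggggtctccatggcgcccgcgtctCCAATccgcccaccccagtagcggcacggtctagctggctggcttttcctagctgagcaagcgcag
Sox2 promoter, chr3:34649745-34650044, plus strand: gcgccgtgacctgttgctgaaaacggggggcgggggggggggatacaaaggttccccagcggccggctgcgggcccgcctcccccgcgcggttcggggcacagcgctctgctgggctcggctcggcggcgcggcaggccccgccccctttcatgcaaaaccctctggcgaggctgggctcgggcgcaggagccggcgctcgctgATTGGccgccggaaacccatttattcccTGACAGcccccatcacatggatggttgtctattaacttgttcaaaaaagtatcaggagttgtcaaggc
None of the matches overlapped another. TGACAG began at position -139 from the start in Six3, -46 in Six6 and -18 in Sox2, and Six3 held CCAAT at 3 places against 2 in Six6 and 1 in Sox2. These matches describe the letters of the windows, and binding was not measured.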

How the data were processed

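RNA-seq libraries were made from whole retinas with a SMARTer total RNA kit and sequenced as single 50-base reads. According to the submitters' processing notes and the study's methods, the authors aligned reads with STAR to GRCm38/mm10 and deposited CPM values per feature. The annotation and whether strand was used are not given in the sources used here. Of the 38168 features 14905 carry no Gene ID. CPM steps gave back whole reads within a tolerance of 0.01 for 100% of values, and the recovered totals were 7077781 to 11332323 reads per library.

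From the deposited CPM, log2(CPM + 1) was fitted with limma 3.58.1 (limma-trend, R 4.3.3) over all 27 libraries with age as the only term. The fit kept the 31760 features that reached 1 CPM in 3 or more libraries, and p-values were adjusted by Benjamini-Hochberg over all of them. edgeR 4.0.16 (quasi-likelihood, TMM) on the recovered reads, which called 24062 features between embryonic and mature retina against 23951 with limma, was an alternative, as were another pseudocount, filters, a block for the replicate number, median-of-ratios scaling, fits of the compared ages only, summed entries of a symbol and each library left out. Ratios of gene pairs were tested by exact permutation (own code with numpy 2.4.6), and leaving E14 out of them was added after the data were seen. The scripts were tested on simulated data.

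The 8 genes and all lists were chosen with earlier results of these data known. Named genes were the 8, up to 3 per list with the largest change past the threshold, the 3 most alike in time course, and overlapping genes. Six2, Ssbp2, Pknox2, Lmo1, Lmo4, Th and Pax7 were named after their values were seen. A few genes that this rule names are not reported here. Exon lengths, overlaps and shared 50-base stretches came from GENCODE vM21 on GRCm38, and promoter windows from RefSeq on GRCm38.p6.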

Additional observations from a re-analysis of the deposited data

Results flagged for a closer look

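Of 40 sets of libraries checked, each 1 gene or 1 of the paralog ratios at 1 age with 4 or more libraries, 1 held a library far from the others. Lhx2 in P15 replicate 2 was the highest of 4 at 14.222 CPM, with the other libraries between 13.7 and 13.8 CPM. The gap took 0.915 of the whole range, against a critical value of 0.829. Chance marks about 1 in 20 such sets.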

How the results depend on the processing

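The counts of the 8 genes called stayed at 8 from embryonic to mature retina, 8 for P6 against P1, 7 for P15 against P6 and 0 for P28 against P15 under every alternative run, and no change reversed. From E14 to E17 the count ran from 1 to 3 with a library left out (1 without E14 replicate 3) and was 4 with the compared ages only, where Rax also passed (limma adjusted p = 0.00533). From E17 to P1 it was 2 with the compared ages only, where Lhx2 also passed (limma adjusted p = 0.0237). From P28 to P60 it was 1 with median-of-ratios scaling and with edgeR, 0 with the replicate block and with the compared ages only, and 1 to 2 with a library left out. The cause was not tested.

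With the replicate block, Six3 changed by -0.20 (limma adjusted p = 0.134) and Six6 by -0.26 (limma adjusted p = 0.0593) from P28 to P60, and no other call of the 8 genes changed. Over 20 same-numbered pairs the correlation of deviations lay between -0.0962 and 0.0932. In 10 of these pairs the library matched its own number best, and the count expected without pairing was not computed. The labels give no link between libraries of the same number, and whether they share a batch was not tested.

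Over all features, 11370 in place of 23951 passed from embryonic to mature retina with a filter of 10 CPM in mean, which tests fewer features. The same filter gave 7398 (12178) for P6 against P1, 6879 (10610) for P15 against P6 and 12569 (26355) for any age. The compared ages alone gave 7705 (3359) for E17 against E14, 5298 (2924) for P1 against E17, 1655 (864) for P28 against P15 and 23 (4100) for P60 against P28, where the block gave 1029. From P15 to P28 the count was 534 without P15 replicate 3 and 497 without P28 replicate 4. From P28 to P60 it was 1513, 1516, 2045 and 2680 without P28 replicate 1, 2, 3 and 4, and 7425, 7517, 2090, 2063 and 1944 without P60 replicate 1, 2, 3, 4 and 5. edgeR shifted the median of all features by 0.10 from embryonic to mature retina.

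Of the 28 gene pairs 27 passed with any library left out, 26 without P60, 23 without E17 and 24 without E14. Pairs that no longer passed were Rax over Six6 (0.29 without P60 and 0.14 without E14), Rax over Meis1 (-0.13), Lhx2 over Six6 (-0.40) and Six3 over Six6 (-0.15) without E17, Sox2 over Lhx2 (-0.29) without E14, and Lhx2 over Six3 without E17 or E14.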

Other observations

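Pax7, a relative of Pax6, stood at 13.2 CPM in mean at P6, where its change from P1 was 2.28 on the log2(CPM + 1) scale (limma adjusted p = 3.63e-13). It was singled out after its values were seen.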
